A study of Mus musculus with 5 samples.

Results

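RXRα binding was examined at 10 genes that govern entry into the cell cycle: Myc, the D-type cyclins Ccnd1, Ccnd2 and Ccnd3, their kinases Cdk4 and Cdk6, and the CDK inhibitors Cdkn1a, Cdkn1b, Cdkn2a and Cdkn2c. A peak was given to a gene where, among all protein-coding transcription start sites (TSSs) of the mouse annotation, the TSS nearest to the midpoint of the peak was one of that gene. By this rule these genes took 16 peaks from the WT A list of 4751, 32 from the WT G list of 9766, 1 from the KO A list of 83 and 2 from the KO G list of 208. The data came from alveolar macrophages (AMs), which live in the air spaces of the lung. The cells were collected by bronchoalveolar lavage, sorted by flow cytometry in aliquots of 200000 cells and profiled by HT-ChIPmentation, a chromatin immunoprecipitation in which the transposase Tn5 builds the library on the beads. Both genotypes carried floxed Rxra and Rxrb. WT A and WT G were CD11cCre- Rxrab fl/fl and KO A and KO G were CD11cCre+ Rxrab fl/fl, and 1 input sample, also without Cre, was the control for peak calling. The methods give C57BL/6J mice of 9 weeks, and no treatment is named. Cd11c also drives Cre in other cells that express it, such as dendritic cells, so the KO is not limited to AMs. The labels do not say whether A and G were separate animals or pools, so the spread between them may be technical. Peak lists measure binding and not expression, so neither the cell label nor the deletion of either receptor could be checked against transcripts here.

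RXRα is a nuclear receptor that binds DNA as a partner of other receptors, typically at direct repeats of a hexamer. AMs are long-lived and renew themselves in the lung by local proliferation. In a dividing cell, mitogen signals raise MYC and the D-type cyclins, which switch on CDK4 and CDK6, and these kinases phosphorylate the RB protein and release E2F. The p16 product of Cdkn2a and the product of Cdkn2c block CDK4 and CDK6 directly, whereas those of Cdkn1a and Cdkn1b bind cyclin and CDK complexes more widely.

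The regions that carried the strongest binding are shown by their reference sequence (GRCm38, the mm10 build), from 50 bases before to 50 bases after the stronger WT summit, on the plus strand. They are the strongest regions of the 4 genes with the highest −log10 q, and the Cdk4 promoter region, added after its values were seen because it was the only region at a promoter found in both WT lists. Capitals mark a match to the motifs described further on: C/EBP on the minus strand and then a receptor half-site on the minus strand in the Ccnd2 sequence, and C/EBP on the plus strand in the Cdk4 sequence.
Cdkn1a, 20.1 kb upstream, chr17:29070883-29070983: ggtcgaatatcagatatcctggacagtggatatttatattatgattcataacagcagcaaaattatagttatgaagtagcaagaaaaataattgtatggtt
Myc, 69.2 kb downstream, chr15:62056636-62056736: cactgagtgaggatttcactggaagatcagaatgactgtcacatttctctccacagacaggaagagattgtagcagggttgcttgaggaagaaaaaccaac
Ccnd2, 85.7 kb upstream, chr6:127236644-127236744: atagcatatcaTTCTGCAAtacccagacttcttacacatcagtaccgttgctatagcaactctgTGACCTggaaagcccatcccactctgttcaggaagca
Cdkn2c, 52.7 kb downstream, chr4:109612595-109612695: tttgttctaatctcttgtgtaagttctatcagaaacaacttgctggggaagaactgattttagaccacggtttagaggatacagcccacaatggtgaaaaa
Cdk4, 0.541 kb upstream, chr10:127062584-127062684: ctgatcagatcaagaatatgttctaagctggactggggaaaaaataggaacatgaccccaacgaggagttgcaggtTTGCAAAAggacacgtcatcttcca

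The first question was how many peaks these genes had with and without RXR. Peaks clustered at Myc and Ccnd2, which together held 12 of the 16 peaks of WT A and 17 of the 32 of WT G, and both KO lists were nearly empty at all 10 genes. WT libraries had 24 ± 11.3 peaks (SD, n = 2) and KO libraries 1.5 ± 0.707 (SD, n = 2), a difference of 22.5 peaks. The ranges of the genotypes did not overlap, and the difference was larger than the gap of 16 peaks between the WT lists. The exact permutation test over libraries (two-sided) returned p = 0.33, which 2 libraries against 2 cannot go below, so a threshold of 0.05 is out of reach in this design. As a share of each list, peaks of these genes made up 0.337% (WT A), 0.328% (WT G), 0.962% (KO G) and 1.20% (KO A). Both KO shares were above both WT shares, but they rest on 1 peak and 2 peaks.

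**Figure D1:**
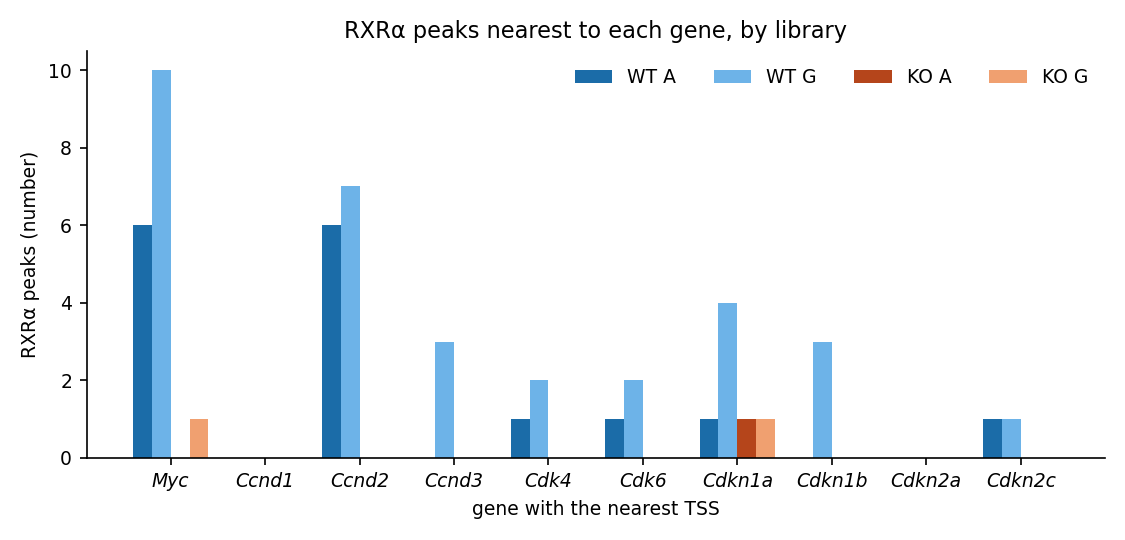
Number of RXRα peaks (vertical axis) whose nearest protein-coding TSS belongs to each gene (horizontal axis), in each of the 4 ChIP libraries. Each bar is 1 library; Myc and Ccnd2 hold most WT peaks, Ccnd1 and Cdkn2a have none, and KO bars appear only at Myc and Cdkn1a.

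Depth differed between the libraries and bears on every count. The lists hold no read totals, so the fragments at each summit and the depth relative to the input were derived from the fold enrichment and p-value of each peak. WT A had a derived depth of 1.13, KO G of 0.848, KO A of 0.647 and WT G of 0.237. WT G was the shallowest library and had the longest list. Fragments were compared between libraries relative to the genome-wide background pileup of each library, which holds both its depth and its fragment length. The lowest number of fragments under any called summit was 5 for WT G, 8 for KO G and 10 each for WT A and KO A.

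Of the 10 genes, 6 were nearest to a WT A peak (background over 21911 protein-coding genes 10.4%), 8 to a WT G peak (16.6%), 1 to a KO A peak (0.351%) and 2 to a KO G peak (0.858%). When WT peaks that overlapped by at least 1 bp were merged, the 10 genes had 34 regions, and 13 of them (38.2%, 95% exact Clopper-Pearson interval 22.2 to 56.4, which covers counting error only) had a peak in both WT lists. Over all 10461 merged regions that share was 32.7%, so WT replication at these genes was near the background. Where the overlap had to cover at least 50% of both peaks, 8 regions were counted in place of 13. Myc, Ccnd2, Cdk4, Cdk6, Cdkn1a and Cdkn2c had at least 1 region in both lists, 6 of 10 genes against 8.82% of all protein-coding genes. With the overlap of at least 50%, 4 of the 10 genes were left. A gene with more space around its TSS can collect more peaks. The space in which these TSSs were the nearest ran from 5.07 kb at Cdk4 to 3444 kb at Cdk6, with a median of 96.6 kb against 47.2 kb over all protein-coding genes. That of Cdk6 was counted from the first base of its chromosome, since no protein-coding TSS lies before it. How much of that stretch can yield a peak was not checked. The part of this space in the count of genes was not tested. The other 21 regions were in WT G alone for 18 and in WT A alone for 3.

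**Figure D2:**
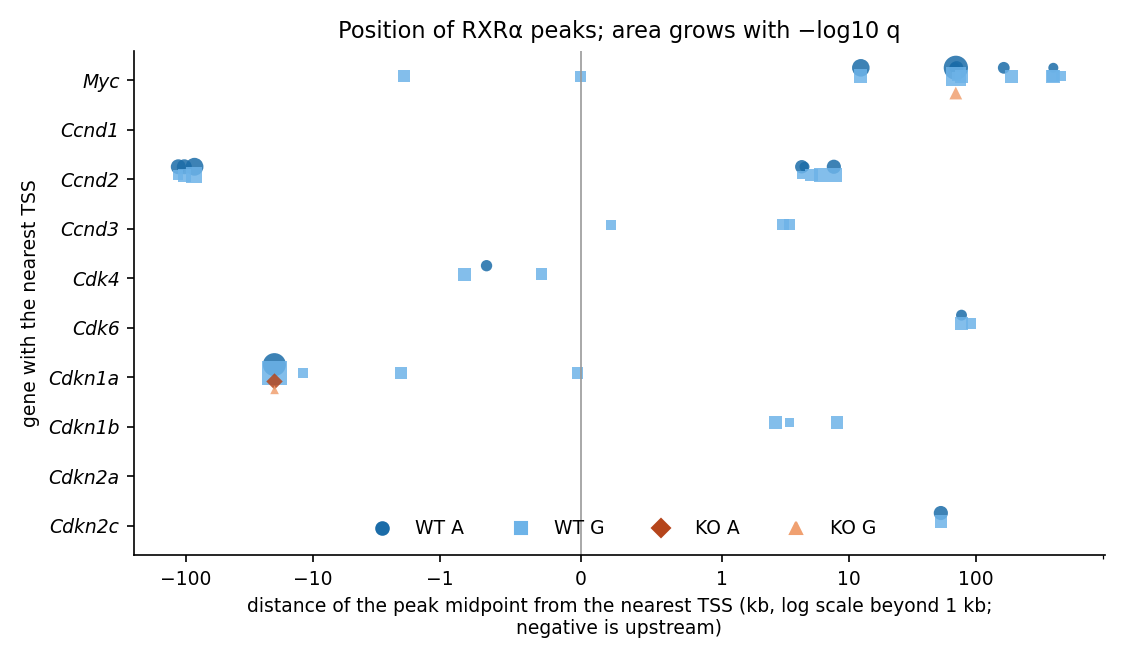
Distance of each RXRα peak midpoint from the nearest TSS (horizontal axis, in kb, linear within 1 kb and logarithmic beyond, negative upstream) for each gene (vertical axis), with 1 symbol per peak, coloured and shaped by library and sized by −log10 q. The largest symbols lie 69.2 kb downstream of Myc and 20.1 kb upstream of Cdkn1a, the 2 places where KO peaks also lie.

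Myc encodes the transcription factor that drives growth and division in response to mitogens (chr15:61985391-61990374, plus strand). Its TSS was the nearest over 1445 kb, where WT A had 6 peaks, WT G had 10, KO G had 1 and KO A had 0. All 4 regions in both WT lists lay downstream of the gene, 2 of them in introns of Pvt1, the long noncoding RNA gene that neighbours Myc. The strongest was at chr15:62056263-62057081, 69.2 kb from the TSS, in a Pvt1 intron. Its −log10 q was 25.9 in WT A and 15.9 in WT G, and its fold enrichment, the pileup over the local input background with 1 added to each, was 14.2 and 11.6. The summits of the WT peaks were 96 bp apart, and the region ranked 56 of 4751 in WT A and 270 of 9766 in WT G. KO G had a weaker peak inside it, with a −log10 q of 6.31 and a fold enrichment of 7.23, and KO A had none.

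The other Myc regions in both WT lists had no KO peak. The intergenic region 12.3 kb downstream (chr15:61999426-62000033) was the nearest to the gene and reached a −log10 q of 13.0 (WT A) and 7.47 (WT G). A region 70.1 kb downstream (chr15:62057234-62057715), next to the strongest one and also in a Pvt1 intron, had 7.14 and 2.45. The most distant one lay 405 kb downstream in intergenic sequence (chr15:62392357-62392797). It had 3.43 in WT A, below the median of 7.14 over that list, and 5.73 in WT G, above the median of 4.64. At the Myc TSS itself WT G alone had a peak, centred 2 bp upstream, with a −log10 q of 4.64 and 8 fragments. Another WT G peak, centred 1.92 kb upstream at the promoter of the annotated gene Gm37947, had 5.73 and 9 fragments. The remaining peaks in 1 list alone were 2 in WT A, at 67.8 and 165 kb, and 4 in WT G, at 76.2, 190, 402 and 463 kb, and none of the 8 had a −log10 q above 6.88.

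Among the D-type cyclins, Ccnd2 held all regions found in both WT lists, 5 in all, and none of them had a KO peak. Ccnd2 (chr6:127125162-127152193, minus strand) encodes cyclin D2 and had 6 WT A peaks, 7 WT G peaks and 0 in either KO list. Its regions fell into an intronic group and a distal upstream group. In WT A each distal region had a higher −log10 q than either intronic one, and in WT G only the region 85.7 kb upstream did. The region 85.7 kb upstream (chr6:127236495-127237095) reached a −log10 q of 13.5 (WT A) and 10.5 (WT G), with fold enrichments of 9.46 and 9.03. The regions 103 kb upstream (chr6:127254015-127254490) and 115 kb upstream (chr6:127265862-127266410) both had 9.11 in WT A, and 6.88 and 3.61 in WT G. The former lay in an intron of the long noncoding RNA gene Gm43635, the other members of the distal group in intergenic sequence.

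Within the Ccnd2 introns, the region 7.79 kb from the TSS (chr6:127142880-127143557) was nearly equal in the WT lists, with a −log10 q of 8.06 for WT A and 8.04 for WT G. The region 4.21 kb from the TSS (chr6:127146682-127146914) differed between them, with 7.14 in WT A and 1.73 in WT G, where it rested on 5 fragments, the lowest number in that list. Peaks in 1 list alone lay between these regions, at 4.45 kb in WT A and at 5.04 and 5.96 kb in WT G, the last with a −log10 q of 8.04. No peak of any list lay at the Ccnd2 promoter.

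The other D-type cyclins had no replicated binding. Ccnd1 (chr7:144929931-144939925, minus strand), which encodes cyclin D1, had no peak in any list within the 146 kb in which its TSS was the nearest. Ccnd3 (chr17:47505051-47599691, plus strand), which encodes cyclin D3, had 3 peaks in WT G alone, 0.214, 3.02 and 3.41 kb downstream of a TSS and within its introns. Their −log10 q was 3.61, 4.64 and 4.64, and they rested on 7, 8 and 8 fragments. A gene without a called peak may still be bound below the threshold of these lists.

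The kinase genes differed in where the peaks lay. Cdk4 (chr10:127063534-127067920, plus strand) has the smallest space of the 10 genes and had the only promoter region in both WT lists, counting as promoter the last 1 kb before a TSS and the first 100 bp after it. The region chr10:127062472-127063513 covered 1 WT A peak, with a −log10 q of 4.74 and a fold enrichment of 4.67 from 20 fragments, and 2 WT G peaks, the stronger with 6.82 and 6.67 from 12 fragments. The local input background there was raised, 2.39 times the genome-wide level of the list in WT A and 1.72 times in WT G, so that 20 fragments gave a lower −log10 q than 16 did elsewhere in WT A. Cdk6 (chr5:3341485-3531008, plus strand) was bound in an intron of the gene itself, 76.7 kb from the TSS (chr5:3420751-3421322). WT A gave that region a −log10 q of 4.31 and WT G one of 5.73, with 13 and 9 fragments. WT G had a second intronic Cdk6 peak at 90.5 kb, with a −log10 q of 3.61, and neither kinase gene had a KO peak.

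Cdkn1a, which encodes the inhibitor p21 and is induced by p53 (chr17:29090976-29100727, plus strand), had the only region of the 10 genes with a peak in all 4 lists. It lay 20.1 kb upstream, at chr17:29070503-29071184, in an intron of Trp53cor1, a long noncoding RNA gene beside Cdkn1a that is also known as a p53 target. The −log10 q reached 26.4 (WT G) and 23.3 (WT A) without Cre, and 5.04 (KO A) and 2.24 (KO G) with Cre. Both KO values were below both WT values. In the same order the fold enrichment was 16.1, 13.0, 6.61 and 5.17, and the summits had 24, 32, 12 and 9 fragments. It ranked 103 of 4751 in WT A and 41 of 9766 in WT G. Of the bases shown above around its WT G summit, 98.0% were masked as repeats and 29.7% were G or C, and the part of the repeat in the KO peaks was not tested. Over all 3423 regions in both WT lists, 3349 had no KO A peak and 3240 had no KO G peak, against 12 and 11 of the 13 at these genes. A peak in all 4 lists was thus uncommon over all regions as well. The finding of a peak in all 4 lists depended on the settings. With a −log10 q of at least 3 required, the KO G peak was not counted. Where the overlap had to cover at least 50% of both peaks, no region in both WT lists was counted with a KO peak.

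Relative to the genome-wide background of its library, the fragments at the Cdkn1a upstream region were 43.6-fold in WT G, 22.5-fold in WT A, 12.4-fold in KO A and 9.62-fold in KO G. WT A was 1.81-fold above KO A and 2.34-fold above KO G, WT G was 3.51-fold above KO A and 4.53-fold above KO G, and the WT libraries differed from each other by 1.93-fold. At the Myc region 69.2 kb downstream the same measure was 30.9 in WT G, 24.7 in WT A and 13.9 in KO G. Peaks were thus still called in the KO at these regions, at lower values than in either WT library, and whether RXRα itself gave that signal was not tested.

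The promoter side of Cdkn1a had peaks in WT G alone. They lay 27 bp upstream of a TSS with a −log10 q of 4.64, 2.04 kb upstream of a TSS, within the gene, with 5.73, and 12.0 kb upstream in an exon of Trp53cor1 with 3.61. They rested on 8, 9 and 7 fragments.

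The remaining inhibitor genes ranged from 1 replicated region to no peak at all. Cdkn2c (chr4:109660876-109667189, minus strand), which encodes p18, an inhibitor of CDK4 and CDK6, had 1 region in both WT lists and no KO peak. It lay 52.7 kb from the TSS, beyond the 3′ end of the gene, at chr4:109612375-109613003 in an intron of the noncoding transcript Gm12811. Its −log10 q was 8.06 in WT A and 5.73 in WT G. The protein-coding TSS next in distance was that of Faf1, 63.9 kb away. Cdkn1b (chr6:134920401-134925513, plus strand), which encodes p27, had 3 peaks in WT G alone, at 2.62, 3.38 and 8.01 kb downstream of its TSSs, the first 2 in its exons and the last at the promoter of the noncoding gene Lockd, which lies downstream of Cdkn1b. Their −log10 q was 5.87, 2.63 and 5.73. Cdkn2a (chr4:89274471-89294653, minus strand), which encodes p16 and also ARF, a protein that acts through MDM2 and p53, had no peak in any list.

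The 13 regions found in both WT lists had a median distance of 69.2 kb from the TSS, against 15.7 kb over the 3423 regions in both WT lists. The space around Ccnd2, 169 kb wide, and that around Myc and Cdk6, given above, allow such distances, and its part in them was not tested. Beyond 100 kb lay 3 of the 13, a pair at Ccnd2 and 1 at Myc (exact interval 5.04 to 53.8%, background 8.68%), and at a promoter 1 of the 13 (0.195 to 36.03%, background 10.8%), so that both intervals held the background. Another 8 were intronic (51.8% of all), 4 were intergenic (33.2% of all) and 0 were in exons (4.12% of all). In width they resembled the rest, with a median of 601 bp against 574 bp, and the WT summits were a median of 95 bp apart against 96 bp.

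In strength the 13 regions were near the middle of the regions found in both WT lists in WT A and below it in WT G, and within each whole list their median rank was in the top 28.1% in WT A and the top 31.0% in WT G. The median −log10 q was 8.06 in WT A against 8.06 over all regions in both WT lists, and 6.82 in WT G against 8.04. The median fold enrichment was 7.11 in WT A against 6.72, and 6.67 in WT G against 7.60. WT A gave the higher −log10 q at 9 of the 13 regions, and at 1751 of all 3423. Relative to the genome-wide background, WT G had 0.805 to 1.93 times the fragments of WT A at the 13 regions, with a median of 1.36 against 1.61 over all regions. Scaled by derived depth alone, each of these ratios would be 1.85 times as high, and even the lowest would then be higher in WT G.

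**Figure D3:**
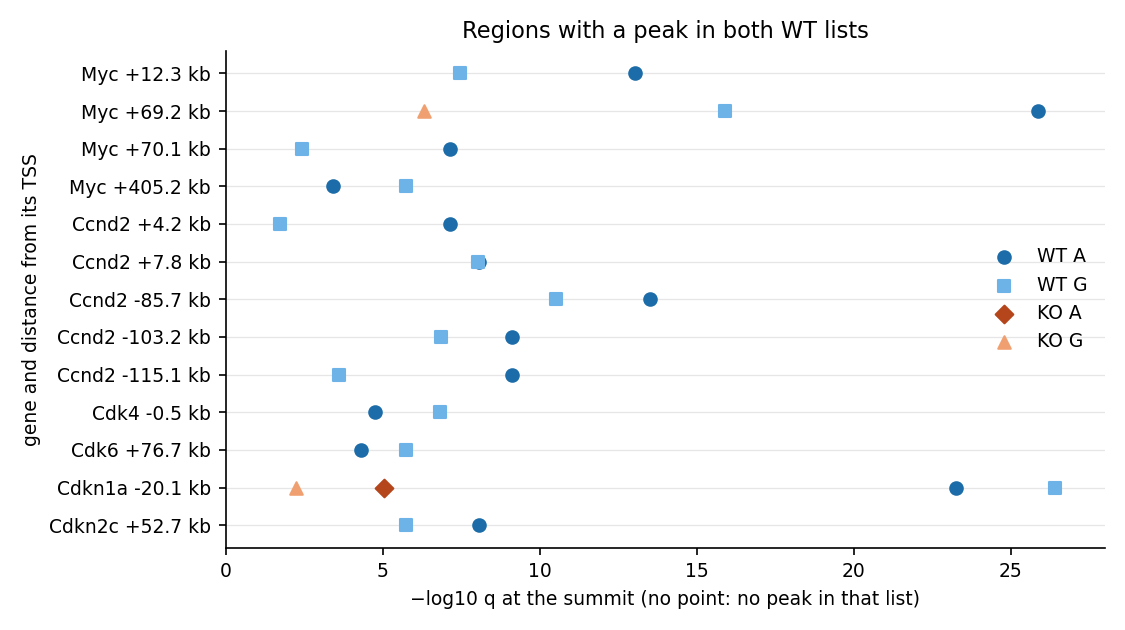
−log10 q at the summit (horizontal axis) for the 13 regions found in both WT lists (vertical axis, gene and distance from its TSS), with 1 symbol per library and no symbol where a list has no peak. The Myc region at 69.2 kb and the Cdkn1a region at 20.1 kb stand above the rest in both WT lists and are the only ones with KO symbols, and the WT symbols of the Ccnd2 region at 7.8 kb coincide.

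The next question was whether a peak could have been missed in the KO. Of the 13 regions, 11 (84.6%, exact interval 54.6 to 98.1) had no peak in either KO list, against 94.1% of all regions in both WT lists. For each region without a KO peak, the fragments to be expected in that KO library at the WT rate were set beside the lowest number of fragments in the KO list. At the WT A rate, at least 8 fragments were to be expected in KO G at 10 of the 11 regions without a KO G peak, against 93.1% over all regions. In KO A at least 10 were to be expected at 10 of the 12 without a KO A peak, against 74.9%. The exceptions were the Myc region at 405 kb in both libraries and the Cdk6 region in KO A, where a peak was not to be counted on at this depth even with binding as in WT A. An expected number at the limit does not mean that a peak would be called, since counting error can put the fragments below it. Such numbers were 10.9 in KO A for the Myc region at 70.1 kb and the Ccnd2 region at 4.21 kb, and 8.57 in KO G for the Cdk6 region. No account was taken of the regions having been chosen for called WT peaks. The lowest number of a list takes no account of a raised local background, as at the Cdk4 promoter region. The 13.6 fragments expected there in KO A and 13.2 in KO G reach it, but do not show that a peak was to be counted on. The count in KO A depended on the scaling: by derived depth alone, with no account of fragment length, 6 of 12 would have reached 10 fragments, against 45.5% over all regions. At the WT G rate 11 of the 12 would have reached the limit of KO A, against 99.9% of all regions, the exception being the Ccnd2 region 4.21 kb from the TSS with 8.76 fragments. That region had 5 fragments in WT G, the lowest number of that list, so few WT G peaks could fall short in KO A. All 11 would have reached the limit of KO G, as would 100% of all regions, but this was fixed in advance. Even the lowest WT G summit scales to 8.49 fragments in KO G, above 8. The check at the WT G rate therefore cannot tell whether a KO G peak was missed, and tells little for KO A.

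The regions with KO peaks were read the same way. At the WT A rate the Cdkn1a region would have held 21.8 fragments in KO A, where 12 were found, and 21.1 in KO G, where 9 were found. At the WT G rate the same region would have held 42.1 and 40.8 fragments. The Myc region at 69.2 kb would have held 23.1 fragments in KO G at the WT A rate and 28.9 at the WT G rate, and 13 were found, whereas KO A, with 23.8 and 29.8 to be expected at these rates, had no peak. No test was made on these single values.

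**Figure D4:**
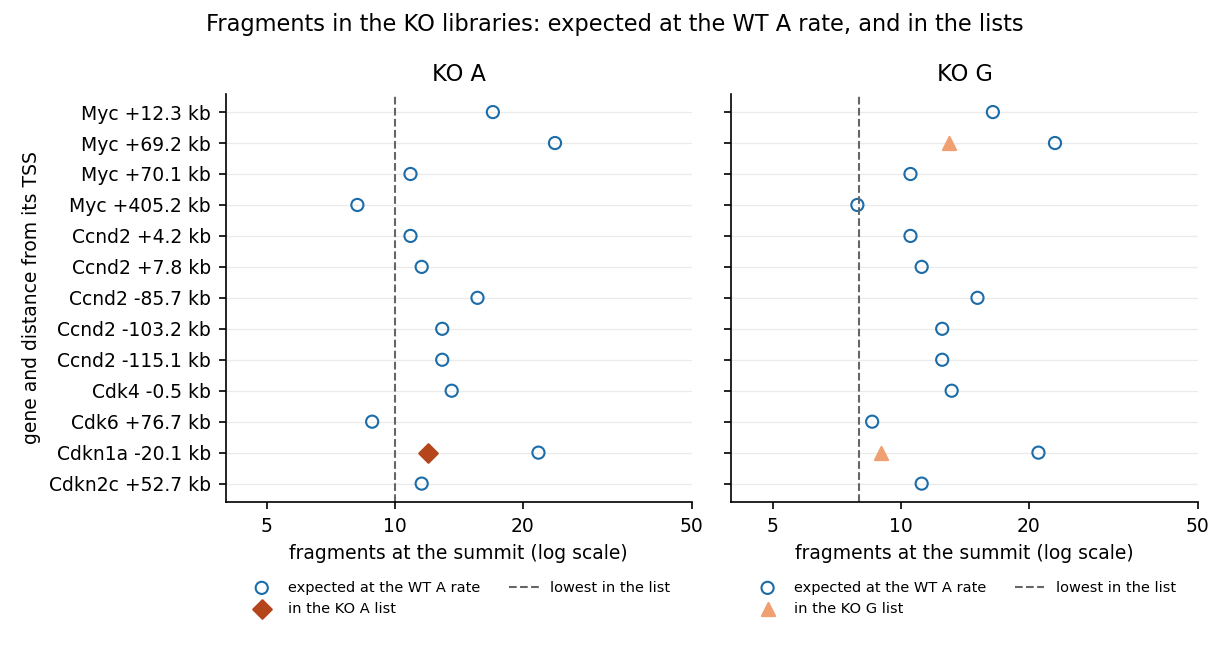
Fragments at the summit (horizontal axis, log scale) in the KO libraries for the 13 regions found in both WT lists (vertical axis). Open symbols give the fragments expected at the rate of WT A relative to the genome-wide background, filled symbols the fragments in the KO list, and the dashed line the lowest number in that list; in KO A 2 of the open circles lie left of the line, and in KO G 1 does.

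Windows reaching 50 bp to each side of the stronger WT summit were scanned on both strands for the receptor half-site AGGTCA, for direct repeats of it with 1, 4 or 5 bases between the hexamers (DR1, DR4 and DR5, up to 2 mismatches, so that a repeat match can contain a half-site), and for the cores of C/EBP (TTGCNNAA), PU.1 (GAGGAAGT), RUNX (TGTGGTT) and AP-1 (TGAGTCA). A DR1 match was in 0 of the 13 windows, against 6.34% of the 3423, so that fewer than 1 would be counted among 13 at that share. The half-site was in 1 window, that of the Ccnd2 region 85.7 kb upstream, against 15.2% of all. The C/EBP core was in 3 windows against 11.0%: the Ccnd2 region 85.7 kb upstream, the Myc region at 405 kb and the Cdk4 promoter region. DR4 (1.90% of all), DR5 (2.57%), PU.1 (4.38%), RUNX (5.93%) and AP-1 (5.49%) were in none. A missing match says only that these letters are not in the window. Receptor matches also lay near the summit of the other WT list, not wholly inside these windows. Half-sites were centred 18 bp from the WT A summit at Cdkn1a, and 16 bp from the WT G summit at Ccnd2, 103 kb upstream. Another was at -26 bp from the WT G summit at Cdkn2c (negative toward lower coordinates). The Ccnd2 region also had a DR4 match 21 bp from its WT G summit. No share over all regions is given for these.

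Over the whole length of the regions, 9 of the 13 held a half-site, against 50.5% of all 3423, and 2 held a DR1 match, against 21.5%. The DR1 matches are shown on the strand of the match, with 30 bases on each side and the match in capitals. The Cdkn2c match differed from the consensus at 1 base and was centred 30 bp from the WT G summit and 89 bp from the WT A summit, outside the window above. The Myc matches, both in the region at 69.2 kb, differed at 2 bases, and the nearer one was centred 78 bp from the WT A summit. DR4 matches were in 2 regions (10.4% of all) and a DR5 match in 1 (10.4% of all), the Cdk4 promoter region, where it lay 772 bp from the WT A summit. Over the whole length the C/EBP core was in 4 of the 13 (42.2% of all). PU.1 was in 2 (16.1% of all), RUNX in 2 (24.6% of all) and AP-1 in 0 (22.0% of all).
Cdkn2c, chr4:109612698-109612770, plus strand: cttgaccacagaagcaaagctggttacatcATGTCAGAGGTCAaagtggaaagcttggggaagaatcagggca
Myc, chr15:62056572-62056644, minus strand: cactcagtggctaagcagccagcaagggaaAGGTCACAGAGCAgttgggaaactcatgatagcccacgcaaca
Myc, chr15:62057023-62057095, plus strand: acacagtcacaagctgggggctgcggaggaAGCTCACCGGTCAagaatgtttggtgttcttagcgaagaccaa

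The wider cell cycle machinery was counted in the same way over 72 other genes. WT A had a peak nearest to 9 of them (12.5%, background 10.4%), WT G to 20 (27.8%, background 16.6%) and either KO list to 0 (backgrounds 0.351% and 0.858%). A region in both WT lists was nearest to 8 (11.1%, background 8.82%), and to 4 where the overlap had to cover at least 50% of both peaks. Genes of p53 signalling and growth arrest had the most, 4 of 12, with 6 regions. These were Btg1 and Btg2, which restrain proliferation, Gadd45g, a stress-induced gene of growth arrest, and Plk3, a kinase of the stress response. The −log10 q of the strongest region at Btg1 was 15.0 (WT A) and 10.1 (WT G). In the same order it was 7.19 and 11.7 at Btg2, 4.31 and 9.26 at Gadd45g, and 9.11 and 6.88 at Plk3. Next, with equal highest values of 6.88, came Mnt, whose product competes with MYC for the partner MAX, and Aurkb, a mitotic kinase. Of the other classes, later cyclins and kinases had 1 gene of 17 with such a region, pocket proteins and E2F 1 of 13, the MYC network 1 of 10, replication and mitosis 1 of 12, other CDK inhibitors 0 of 4 and degradation of inhibitors 0 of 4. All 11 regions of these genes were without a KO peak (background 94.1%).

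The assignment of a region to a gene is by distance alone and does not show which gene it acts on. With genes of every type allowed, the difference between WT and KO was 6 peaks, with 2 peaks left for WT A, 10 for WT G and 0 for each KO list, and the 13 regions fell to 2, the Myc region at 12.3 kb and the Cdk4 promoter region, since the others lay nearer to the TSS of a noncoding gene or pseudogene, among them Pvt1 for Myc, Gm43635 for Ccnd2 and Trp53cor1 for Cdkn1a.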

How the data were processed

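RXRα HT-ChIPmentation lists of 4 libraries were used, and groups and letters came from the labels. The authors trimmed reads with Cutadapt, aligned them to mm10 with Bowtie2, filtered them with SAMtools and called peaks per library against the input with MACS3 at a q threshold of 0.05, without pooling replicates. The deposited columns are a fold enrichment (a ratio at the summit, with a pseudocount of 1), a −log10 p, a −log10 q, a score (10 times the −log10 q, whole part) and the summit offset. The input itself was not used here. The count model of the study needs reads, so libraries were compared by peak numbers (exact permutation test, two-sided) and by overlap of at least 1 bp, in Python 3.11.15 with pandas 2.3.3, scipy 1.17.1 and pysam 0.24.0.

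TSSs were those of all transcripts of protein-coding genes in GENCODE M21 (basic set), and features were read at midpoints. Fragments were solved from fold enrichment and −log10 p as whole numbers (within 0.01 in −log10 p, for all peaks of each list; the WT A pileup was scaled by 0.884). Depth rests on the shortest peak being the fragment length of the caller and was not checked against reads. Fragments were compared between libraries over the background level that recurred most often in each list. Intervals are at 95%. The steps were tested on simulated data. The 10 genes, the 72 other genes and the tests were chosen with earlier results of these data known. Named were all 10 genes, each of their regions in both WT lists, each KO peak, the strongest peaks in 1 list alone, and the 5 other genes with the highest −log10 q (6 with a tie). Alternatives changed the threshold, the assignment, the annotation, the overlap, the motif settings and the libraries.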

Additional observations from a re-analysis of the deposited data

How the results depend on the processing

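Of 62 alternative values over 17 settings, 51 stayed within 1.5 times the reported value, or kept the direction and side of the test, 11 moved and 0 reversed. For the WT minus KO difference the side of the test could not change, since no value can pass in this design. Its fall from 22.5 to 6 with genes of every type is therefore counted among the 51. With genes of every type allowed as the nearest, the WT minus KO difference was 6, and 2 regions in both WT lists, 2 without a KO peak and 2 of the 10 genes were left. Where the overlap had to cover at least 50% of both peaks, 8 regions, 4 of the 10 genes and 4 of the 72 other genes remained in the count. All 8 regions were then counted as without a KO peak. Leaving out 1 library gave a WT minus KO difference of 14.5 (without WT G) to 30.5 (without WT A), 16 to 32 regions, 11 to 30 without a KO peak, 6 to 8 of the 10 genes, and 9 to 20 of the 72, the higher values without WT A, when the WT G list stands alone. A DR1 match was in 2 of 13 windows with 100 bp on each side of the summit, and in 1 with the summit of the other WT list. With the letters A and G as a replicate block, the mean difference was 22.5 (15 for A and 30 for G, exact p = 0.5); the labels do not say that the letters pair the libraries. Held to equal length, the WT lists gave a difference of 16. With 2 libraries a genotype no difference could pass the test, and peaks of WT G rested on as few as 5 fragments. Scaling by depth alone, chosen after seeing the data, moved the regions to be expected in KO A at the WT A rate from 10 to 6 of 12.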
